A study of Mus musculus with 12 samples.

Results

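NRF2, encoded by Nfe2l2, and 9 genes of its antioxidant programme were followed in cells sorted as macrophages from infarcted mouse hearts. Besides Nfe2l2 the genes were Slc7a11, Gclc, Gclm, Txnrd1, Srxn1, Nqo1, Gsr, Prdx1 and Sqstm1. The members were the rows of the count and TPM tables that carry these symbols, 10 of the 53801 genes listed, and none of the 10 symbols was shared by several rows. RNA was measured by bulk sequencing in 12 libraries, 3 for each pairing of a genotype, WT or Bhlhe41Cre, with a sort gate, CCR2low or CCR2hi. CCR2 is the chemokine receptor that marks macrophages recruited from blood monocytes, and the gates separate cells with low and high surface levels. Bhlhe41Cre here stands for Bhlhe41dTomato-Cre+/-, mice in which 1 allele of Bhlhe41 holds an inserted dTomato-Cre cassette, so that the Cre recombinase follows the expression of that gene. No target allele for the Cre is given in the labels. By the labels, all 4 groups came from male C57BL/6N mice after myocardial infarction by ligation of the left anterior descending coronary artery (LAD). In the Bhlhe41Cre samples the label fields other than the titles are shifted, so strain, sex and treatment are less certain there. Hearts without infarction were not analysed here. The time after infarction, the age and the number of animals behind a library are not stated in the labels, so the p-values measure the spread between libraries, which may be technical in part.

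NRF2 is a transcription factor that KEAP1, an adaptor of a CUL3 ubiquitin ligase, holds at a low protein level by marking it for degradation. Oxidants and electrophiles modify KEAP1, NRF2 then accumulates, pairs with a small MAF protein and binds antioxidant response elements, for which BACH1 competes as a repressor. Because that control acts on the protein, the Nfe2l2 message by itself is not a measure of NRF2 activity. Slc7a11 encodes xCT, the cystine importer, which supplies cysteine for glutathione, and ATF4 also drives it. Gclc and Gclm encode the catalytic and the modifier subunit of glutamate-cysteine ligase, the rate-limiting enzyme of glutathione synthesis, and Gsr encodes glutathione reductase. Txnrd1 reduces thioredoxin, Prdx1 is a peroxiredoxin that thioredoxin serves, and Srxn1 repairs overoxidised peroxiredoxins. Nqo1 is a quinone reductase, and Sqstm1 encodes p62, an autophagy receptor that sequesters KEAP1.

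Promoter windows from RefSeq on GRCm38.p6, 250 bases before to 50 bases after each start site, were found for 8 of the 10 genes, in 10 windows because Txnrd1 has 3. Windows for Gclc and Gsr were not used here. The core of the antioxidant response element, TGACNNNGC on either strand, was present in windows of 5 members (Nfe2l2, Gclm, Txnrd1, Srxn1 and Prdx1) and in 12.4% of the 32851 mouse windows of the same length. The ATF4 element core TGATGNAA was present in the window of 1 member, Slc7a11, which held 2 matches, and in 3.97% of all windows. The AP-1 site TGACTCA was present in Srxn1 and Prdx1, 2 members, and in 5.2% of all windows, and the E-box CACGTG, the kind of site that basic helix-loop-helix factors such as BHLHE41 bind, was present in 0 of the 10 windows and in 7.15% of all windows. The stretches upstream of 5 start sites are shown because these genes were called higher in Bhlhe41Cre CCR2low and hold a match there, with matches on either strand in capitals. Sqstm1, also called higher there, had no match to these 4 motifs in its window and is not shown. In Prdx1 the second block in capitals is an antioxidant response element core that contains an AP-1 site, and the first is an AP-1 site alone. Both blocks of Srxn1 are AP-1 sites, and its antioxidant response element core begins 29 bases after the start site, outside the stretch shown.
Slc7a11, chr3:50443623-50443709, minus strand: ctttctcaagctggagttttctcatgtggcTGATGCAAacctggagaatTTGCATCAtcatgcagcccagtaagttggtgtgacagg
Gclm, chr3:122245393-122245461, plus strand: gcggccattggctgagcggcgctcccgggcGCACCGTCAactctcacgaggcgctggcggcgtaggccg
Txnrd1, chr10:82859084-82859152, plus strand: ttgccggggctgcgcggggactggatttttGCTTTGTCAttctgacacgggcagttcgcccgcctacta
Srxn1, chr2:152105392-152105515, plus strand: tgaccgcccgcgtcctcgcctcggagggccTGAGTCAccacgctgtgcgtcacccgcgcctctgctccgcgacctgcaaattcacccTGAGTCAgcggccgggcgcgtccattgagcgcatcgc
Prdx1, chr4:116685349-116685504, plus strand: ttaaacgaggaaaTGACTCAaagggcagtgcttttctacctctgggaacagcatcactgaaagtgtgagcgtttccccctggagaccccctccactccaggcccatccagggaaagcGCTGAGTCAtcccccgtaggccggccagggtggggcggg

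On GRCm38 (GENCODE release M21) the genes lie at chr2:75675513-75704641 (Nfe2l2, minus strand), chr3:49892526-50443614 (Slc7a11, minus), chr9:77754535-77794485 (Gclc, plus), chr3:122245557-122270732 (Gclm, plus) and chr10:82833951-82897712 (Txnrd1, plus). The others lie at chr2:152105516-152111376 (Srxn1, plus), chr8:107388225-107403206 (Nqo1, minus), chr8:33652523-33698163 (Gsr, plus), chr4:116685544-116700822 (Prdx1, plus) and chr11:50199366-50210827 (Sqstm1, minus). The promoter matches describe the letters of the windows and say nothing about binding. In Slc7a11 the pair of ATF4 cores lies at positions -66 and -47 relative to the start site, on opposite strands. The antioxidant response element cores lie at -134 in Gclm, at -92 in the second window of Txnrd1, at -133 in Prdx1 and at -240 in Nfe2l2.

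Total counts ran from 17702018 to 20826688 per library. The marker genes went with the macrophage label in the CCR2low libraries but not in the CCR2hi libraries, where fibroblast genes took the larger share. The 17 macrophage identity genes took 3.45% to 3.75% of counts in WT CCR2low and 3.08% to 3.42% in Bhlhe41Cre CCR2low. In WT CCR2hi they took 0.247% to 0.576%, and in Bhlhe41Cre CCR2hi 0.847% to 1.11%. The 16 fibroblast genes took 0.916% to 1.25% and 0.481% to 0.920% in those CCR2low groups, and 9.11% to 9.86% and 4.89% to 6.09% in the CCR2hi groups, WT first. Neutrophil genes (10 listed) took 0.0902% to 0.140% in Bhlhe41Cre CCR2hi and at most 0.0275% in any other library. Endothelial (13), mural (10) and cardiomyocyte (10) genes took at most 0.462%, 0.201% and 0.0213%. Of all marker genes, Ly6g (neutrophil) and Ryr2 (cardiomyocyte) were at 0 in at least 1 library. All 6 Bhlhe41Cre libraries held 1403 to 3699 counts of Xist, which is made from an inactive X chromosome, against 0 to 3 in WT, although the labels give male mice throughout. Both Bhlhe41Cre libraries numbered 3 had 105 and 182 counts of 4 Y-linked genes, against 668 to 1741 in the other 10 libraries. Bhlhe41 itself had 531 to 920 counts in the WT libraries and 132 to 477 in the Bhlhe41Cre libraries. Within the groups, the members also moved by library. WT CCR2hi replicate 1 had the highest level of its 3 libraries for 9 of 10 members. In each Bhlhe41Cre group replicate 3 had the lowest for 8 of 10 members. The same count was not made over all genes, so it may not be particular to the members. Results that turn on these libraries are given with and without them. Xist counts separated the genotypes in every library, and leaving libraries out does not change that. The genotype differences below cannot be told apart from this difference, and its part in them was not tested.

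**Figure D1:**
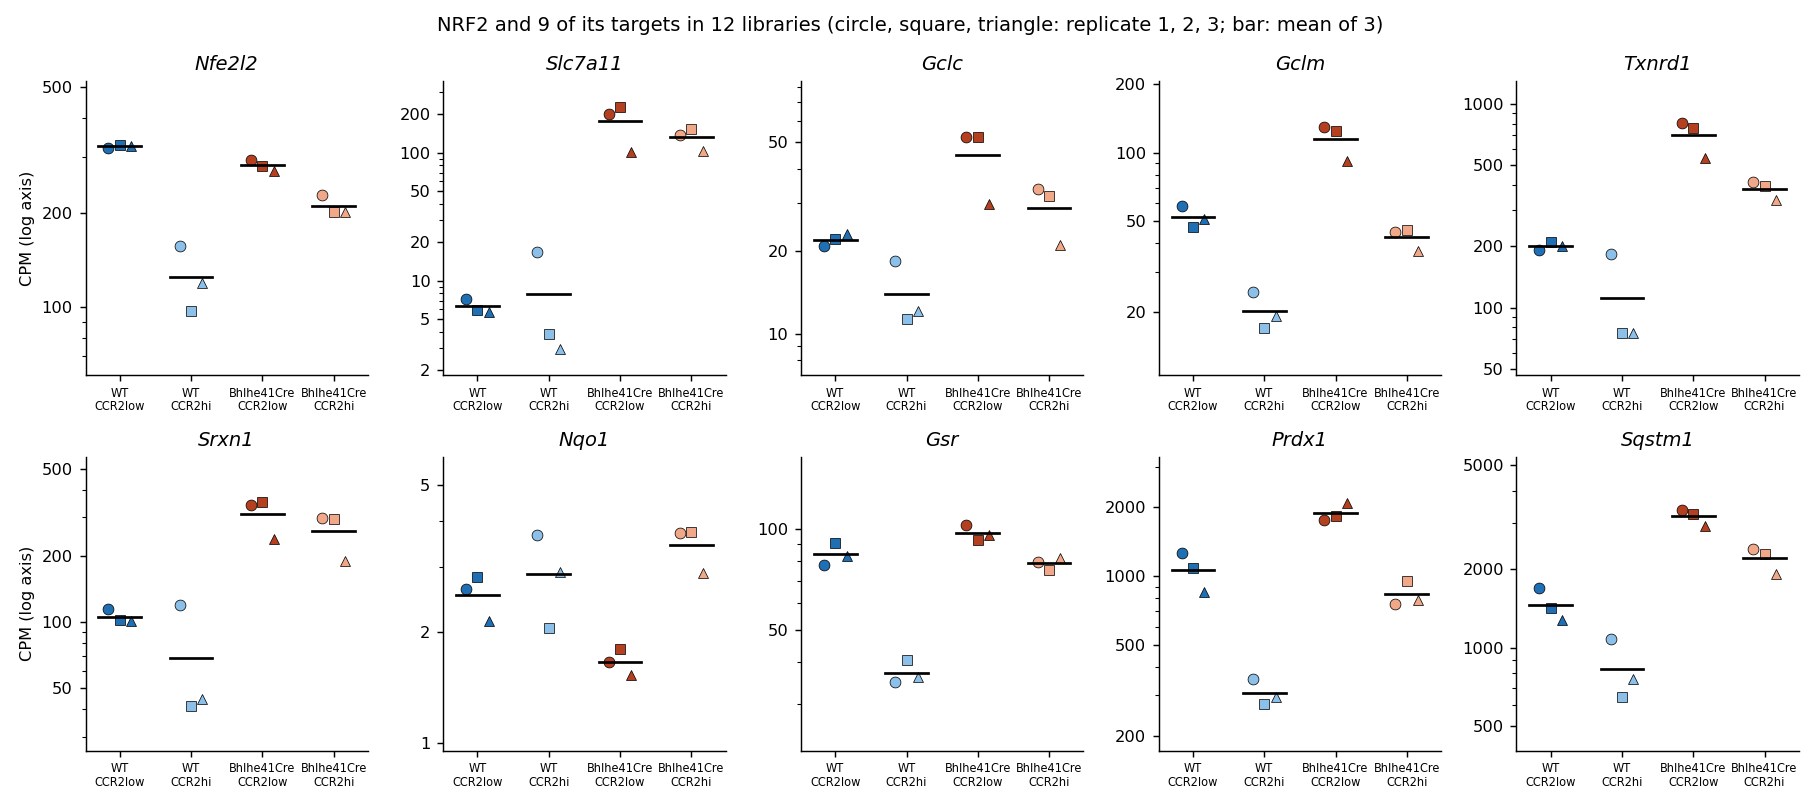
CPM (counts scaled to 1e+06 per library with TMM factors, log axis) of the 10 genes in each of the 12 libraries by group, with circles, squares and triangles for replicates 1, 2 and 3 and a bar at the mean of 3. Slc7a11 lies between 102 and 227 CPM in the 6 Bhlhe41Cre libraries and between 2.96 and 17.0 CPM in the 6 WT libraries, while Nfe2l2 is highest in WT CCR2low.

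Per transcript length, Sqstm1 and Prdx1 were the most abundant of the 10 genes in all 4 groups. In WT CCR2low libraries Prdx1 had 1476 ± 159.8 TPM (SD, n = 3) and Sqstm1 1067 ± 71.6 TPM, followed by Nfe2l2 at 194 ± 15.1 TPM. Nqo1, at 2.42 ± 0.264 TPM, and Slc7a11, at 1.26 ± 0.364 TPM, were the lowest there. In Bhlhe41Cre CCR2low libraries Slc7a11 had 28.9 ± 13.6 TPM and Gclc 18.2 ± 6.71 TPM, and their libraries overlapped (13.8 to 40.2 against 10.5 to 22.4 TPM), while Nqo1 was at 1.59 ± 0.280 TPM. Nqo1 rested on 26 to 78 counts per library, which limits its precision, and the other 9 genes on at least 58.

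Nfe2l2 message itself was 319, 327 and 326 CPM in the WT CCR2low libraries and 157, 97.6 and 119.6 CPM in WT CCR2hi. With Bhlhe41Cre it was 294, 282 and 271 CPM in CCR2low and 228, 201 and 201 CPM in CCR2hi. The 4 groups did not overlap: every WT CCR2low library was above every Bhlhe41Cre CCR2low library, then came Bhlhe41Cre CCR2hi, and WT CCR2hi was lowest. Of the 3 neighbouring pairs in that order, the first, between the genotypes in CCR2low, did not pass the test given below, and the other two did.

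The largest difference among the 10 genes belonged to the cystine importer. Slc7a11 was 7.24, 5.93 and 5.76 CPM in the WT CCR2low libraries and 17.0, 3.83 and 2.96 CPM in WT CCR2hi. In Bhlhe41Cre it was 199, 227 and 102 CPM in the CCR2low libraries and 138, 154 and 104 CPM in the CCR2hi libraries. Each Bhlhe41Cre library was above each WT library, and within a genotype the gates overlapped. In CCR2low cells Slc7a11 was 27.9-fold higher in Bhlhe41Cre than in WT (log2 fold change 4.80, SE 0.576, adjusted p = 0.000106, edgeR quasi-likelihood test), rank 24 among 14964 genes ordered by fold. The value was 3.61 by limma on log2(TPM + 1), a scale that understates the change of low genes.

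Of the 10 genes, 7 were higher and 0 were lower in Bhlhe41Cre than in WT in CCR2low cells, where 16.4% of all genes tested were called higher and 26.7% lower at an adjusted p under 0.05. The median log2 fold change was 1.08 over the 10 genes and -0.18 over all genes. The glutamate-cysteine ligase subunits rose together: Gclm by 1.14 (SE 0.169, adjusted p = 0.000249) and Gclc by 1.02 (SE 0.245, adjusted p = 0.00487). In the thioredoxin branch, Txnrd1 rose by 1.81 (SE 0.291, adjusted p = 0.000413), Srxn1 by 1.56 (SE 0.340, adjusted p = 0.00282) and Prdx1 by 0.83 (SE 0.166, adjusted p = 0.00164). Sqstm1 rose by 1.13 (SE 0.190, adjusted p = 0.000545). The other 3 genes were not called. Nfe2l2 was at -0.20 (95% interval -0.54 to 0.14, adjusted p = 0.298) and Gsr at 0.21 (-0.05 to 0.46, adjusted p = 0.144). Nqo1 was at -0.60 (-1.20 to -0.0007, adjusted p = 0.0784). Gsr passed in 7 of the alternatives, among them without WT CCR2hi replicate 1 (0.40, adjusted p = 0.00989) and by DESeq2 (0.27, adjusted p = 0.0411).

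Levels per library behind these values were as follows. Gclm was 58.0, 47.3 and 51.2 CPM in WT CCR2low and 129, 124 and 92.1 CPM in Bhlhe41Cre CCR2low. Gclc was 20.9, 22.2 and 23.2 CPM in WT CCR2low and 52.3, 52.4 and 29.9 CPM in Bhlhe41Cre CCR2low. For both subunits the Bhlhe41Cre libraries were higher without overlap, and replicate 3 was the lowest of them. Txnrd1 was 191, 211 and 201 CPM in WT CCR2low and 808, 758 and 545 CPM in Bhlhe41Cre CCR2low, and Srxn1 was 114, 102 and 101 CPM against 340.4, 354 and 238 CPM. Neither gene overlapped between the genotypes, and replicate 3 was again lowest in Bhlhe41Cre. Prdx1 was 1257, 1082 and 854 CPM in WT CCR2low and 1756, 1838 and 2083 CPM in Bhlhe41Cre CCR2low, and here Bhlhe41Cre replicate 3 was the highest. Sqstm1 was 1686, 1414 and 1276 CPM in WT CCR2low and 3373, 3254 and 2932 CPM in Bhlhe41Cre CCR2low, again without overlap. Gsr, at 78.3, 91.0 and 83.0 CPM in WT CCR2low, lay just under the 103, 92.4 and 95.9 CPM of Bhlhe41Cre CCR2low. Nqo1 was 2.61, 2.82 and 2.14 CPM in WT CCR2low and 1.66, 1.8 and 1.53 CPM in Bhlhe41Cre CCR2low, so it was the target with the lower level in Bhlhe41Cre.

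When counts were scaled to the summed counts of the 17 macrophage identity genes in place of TMM, which moved the median of all genes by 0.11 in this comparison, 5 members were higher and 0 lower in Bhlhe41Cre CCR2low, against 6.45% higher and 7.91% lower of all genes. Those were Slc7a11 (4.95, adjusted p = 0.00321), Txnrd1 (1.93), Srxn1 (1.69), Gclm (1.27) and Sqstm1 (1.25). Gclc, at 1.16 (adjusted p = 0.0806), and Prdx1, at 0.95 (adjusted p = 0.0837), kept the direction and lost the call. Macrophage identity genes took 3.58% ± 0.154 of counts in WT CCR2low and 3.28% ± 0.173 in Bhlhe41Cre CCR2low (SD, n = 3), and fibroblast genes 1.13% ± 0.188 and 0.650% ± 0.236. In bulk libraries fewer cells of a type and less RNA per cell cannot be told apart. Without both Bhlhe41Cre libraries numbered 3, 7 members were higher and Slc7a11 was at 5.07 (adjusted p = 0.00036).

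**Figure D2:**
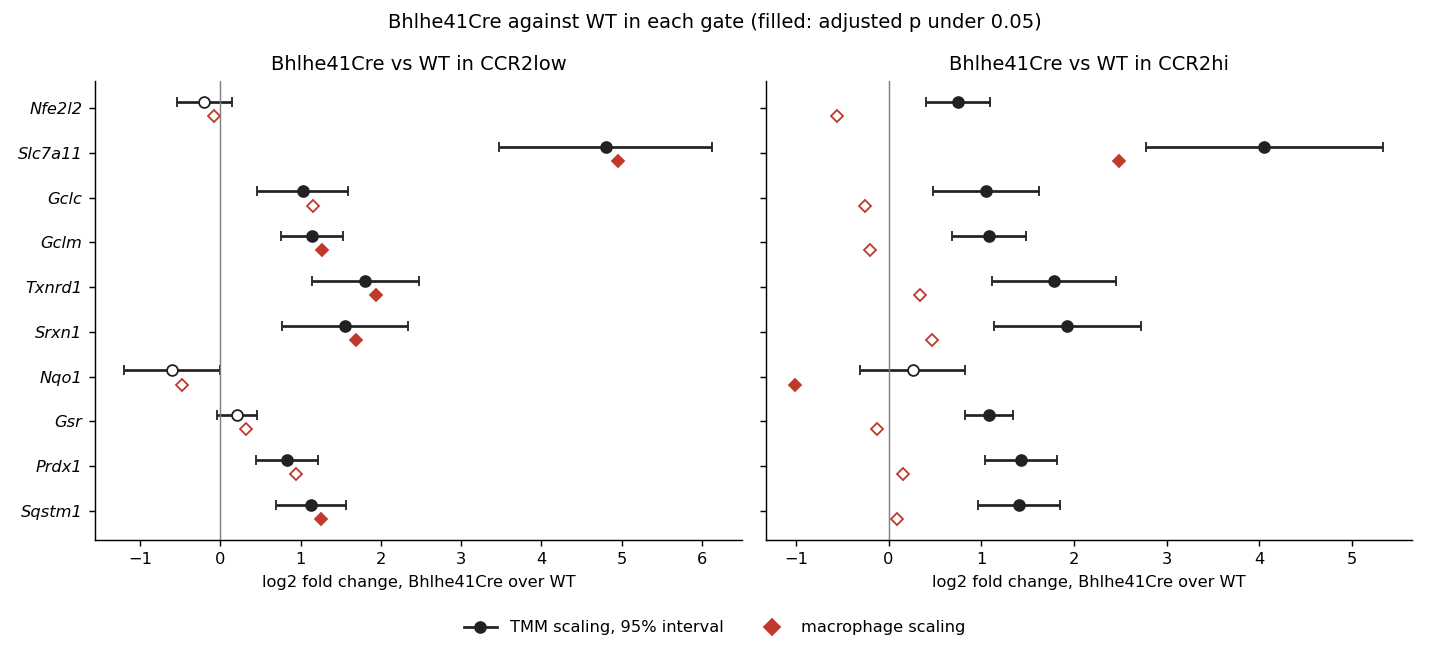
Log2 fold change of Bhlhe41Cre over WT for the 10 genes in CCR2low (left) and CCR2hi cells (right), as black circles with 95% intervals for TMM scaling and red diamonds for macrophage scaling, filled where the adjusted p is under 0.05. Slc7a11 lies farthest right in both panels, and in CCR2hi macrophage scaling puts 5 of the 10 genes below 0.

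In CCR2hi cells 9 of the 10 genes were higher and 0 lower in Bhlhe41Cre than in WT under TMM scaling (16.2% higher and 15.9% lower of all genes), with a median log2 fold change of 1.25 against -0.03 over all genes. Slc7a11 led again at 4.05 (16.6-fold, SE 0.554, adjusted p = 0.000228). It was followed by Srxn1 at 1.93 (adjusted p = 0.00107), Txnrd1 at 1.78 (adjusted p = 0.000585), Prdx1 at 1.43 (adjusted p = 5.73e-05) and Sqstm1 at 1.41 (adjusted p = 0.000155). The glutathione enzymes Gsr (1.09, adjusted p = 1.98e-05), Gclm (1.08, adjusted p = 0.000496) and Gclc (1.05, adjusted p = 0.00631) rose by similar amounts, and Nfe2l2 message rose by 0.75 (adjusted p = 0.00226). Nqo1, at 0.26 (95% interval -0.30 to 0.82, adjusted p = 0.441), was not called.

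Relative to their means, Slc7a11, Txnrd1 and Srxn1 varied more between the WT CCR2hi libraries than within any other group. Their SDs there were 99.1%, 56.0% and 64.7% of the mean, while the SDs in CPM were larger in Bhlhe41Cre CCR2low. Txnrd1 was 182, 75.2 and 74.8 CPM in WT CCR2hi and 413, 393 and 338 CPM in Bhlhe41Cre CCR2hi. Srxn1 was 119.7, 41.5 and 44.4 CPM in WT CCR2hi and 299, 295 and 189.6 CPM in Bhlhe41Cre CCR2hi. Replicate 1 of WT CCR2hi stood above the other two in both, yet the genotypes did not overlap. Without that library Slc7a11 was at 5.27 (adjusted p = 2.07e-06) and Srxn1 at 2.59 (adjusted p = 9.09e-06) on the log2 scale. Gclc was 18.4, 11.3 and 12.1 CPM in WT CCR2hi and 33.9, 31.8 and 21.0 CPM in Bhlhe41Cre CCR2hi, and Gclm was 24.4, 16.9 and 19.1 CPM against 45, 45.8 and 36.8 CPM. Gsr was 35.0, 40.5 and 36.2 CPM in WT CCR2hi and 79.5, 75.5 and 82.2 CPM in Bhlhe41Cre CCR2hi. These 3 glutathione genes were higher in every Bhlhe41Cre library. Prdx1 was 355, 275 and 294 CPM in WT CCR2hi and 757, 949.7 and 787 CPM in Bhlhe41Cre CCR2hi, and Sqstm1 was 1080.5, 644 and 759 CPM against 2395, 2292 and 1910.4 CPM. Both were likewise higher without overlap. Nqo1 overlapped, with 3.65, 2.05 and 2.90 CPM in WT CCR2hi and 3.69, 3.72 and 2.89 CPM in Bhlhe41Cre CCR2hi.

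Beside these values, the share of counts in macrophage identity genes also differed between the genotypes in CCR2hi and was 0.433% ± 0.169 in WT and 0.956% ± 0.136 in Bhlhe41Cre (SD, n = 3), while fibroblast genes took 9.48% ± 0.377 and 5.41% ± 0.618. Under macrophage scaling, which shifted the median of all genes by -1.21, 1 member was higher in Bhlhe41Cre CCR2hi (Slc7a11 at 2.49, adjusted p = 0.0111) and 1 lower (Nqo1 at -1.01, adjusted p = 0.0389), with 1.48% of all genes higher and 73.1% lower. Under that scaling Nfe2l2 (-0.56), Gclc (-0.25), Gclm (-0.20) and Gsr (-0.12) turned negative without being called, and Txnrd1 (0.34), Srxn1 (0.47), Prdx1 (0.15) and Sqstm1 (0.09) stayed positive without being called. The part of the other cell types in these values was not tested beyond this scaling.

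CCR2low libraries held more message of most members than CCR2hi libraries of the same genotype relative to all RNA, and less when set against macrophage identity genes. In WT, 7 of 10 members were higher and 0 lower in CCR2low (29.8% higher and 30% lower of all genes), with a median of 0.84 against 0.01 over all genes. Prdx1 (1.79, SE 0.170, adjusted p = 1.12e-06), Nfe2l2 (1.38, SE 0.152, adjusted p = 4.16e-06), Gclm (1.38, SE 0.173, adjusted p = 1.38e-05) and Gsr (1.18, SE 0.111, adjusted p = 1.07e-06) led. Sqstm1 (0.82, adjusted p = 0.00212), Txnrd1 (0.86, adjusted p = 0.0189) and Gclc (0.66, adjusted p = 0.0346) were also higher. Txnrd1 lost its call without WT CCR2hi replicate 2 (0.65, adjusted p = 0.0814) or 3 (0.64, adjusted p = 0.0805), and without Bhlhe41Cre CCR2hi replicate 1 (adjusted p = 0.0755), 2 (adjusted p = 0.0804) or 3 (adjusted p = 0.0723). Gclc lost its call without any 1 of 9 libraries, the exceptions being WT CCR2hi replicate 1 and Bhlhe41Cre CCR2low replicates 1 and 2, with adjusted p up to 0.158. Slc7a11 (-0.33, 95% interval -1.57 to 0.90, adjusted p = 0.613), Srxn1 (0.63, adjusted p = 0.123) and Nqo1 (-0.19, adjusted p = 0.536) were not called. Without WT CCR2hi replicate 1, Srxn1 was called at 1.09 (adjusted p = 0.000905) and the sign of the uncalled Slc7a11 value turned, to 0.69.

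In Bhlhe41Cre, 7 members were higher and 1 was lower in CCR2low than in CCR2hi (24.9% higher and 29.1% lower of all genes), with a median of 0.48 against -0.01 over all genes. Gclm (1.44, adjusted p = 1.02e-05) and Prdx1 (1.19, adjusted p = 4.49e-05) were higher, and Nqo1 fell by 1.04 (adjusted p = 0.00351). Those 3 passed in each of 22 alternatives other than macrophage scaling. Txnrd1 (0.88, adjusted p = 0.0179), Gclc (0.63, adjusted p = 0.0405), Sqstm1 (0.54, adjusted p = 0.0277), Nfe2l2 (0.43, adjusted p = 0.0274) and Gsr (0.29, adjusted p = 0.0349) were higher by smaller amounts. Library size scaling in place of TMM left 2 higher and 1 lower. Each of these 5 lost its call without at least 1 Bhlhe41Cre library, Gsr among them without CCR2hi replicate 1 (adjusted p = 0.0752), and Gclc also without WT CCR2low replicate 2 (adjusted p = 0.0518). Leaving out both Bhlhe41Cre libraries numbered 3 left 4 higher, and leaving out 1 library left 2 higher without CCR2low replicate 1 or CCR2hi replicate 3, 3 without CCR2hi replicate 2 and 4 without CCR2low replicate 2, all of Bhlhe41Cre. Slc7a11 (0.42, 95% interval -0.69 to 1.52, adjusted p = 0.488) and Srxn1 (0.25, adjusted p = 0.545) were not called.

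Relative to the macrophage identity genes the direction of the gate difference reversed. Under that scaling, which shifted the median of all genes by -3.33 in WT and -1.99 in Bhlhe41Cre, 10 members were lower and 0 higher in CCR2low in WT, where 95.2% of all genes were lower and 0.715% higher. In Bhlhe41Cre 8 were lower and 0 higher, against 90.2% and 0.454% of all genes, so in both genotypes the members' counts were near those of all genes. Prdx1 in WT was at -1.61 and Sqstm1 at -2.63, while in Bhlhe41Cre Gclm, at -0.56 (adjusted p = 0.168), and Slc7a11, at -1.56 (adjusted p = 0.0575), were not called. Macrophage genes took 3.45% to 3.75% of counts in WT CCR2low against 0.247% to 0.576% in WT CCR2hi, and fibroblasts and other cells also carry these messages. How much of each member came from macrophages in the CCR2hi libraries was not tested.

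**Figure D3:**
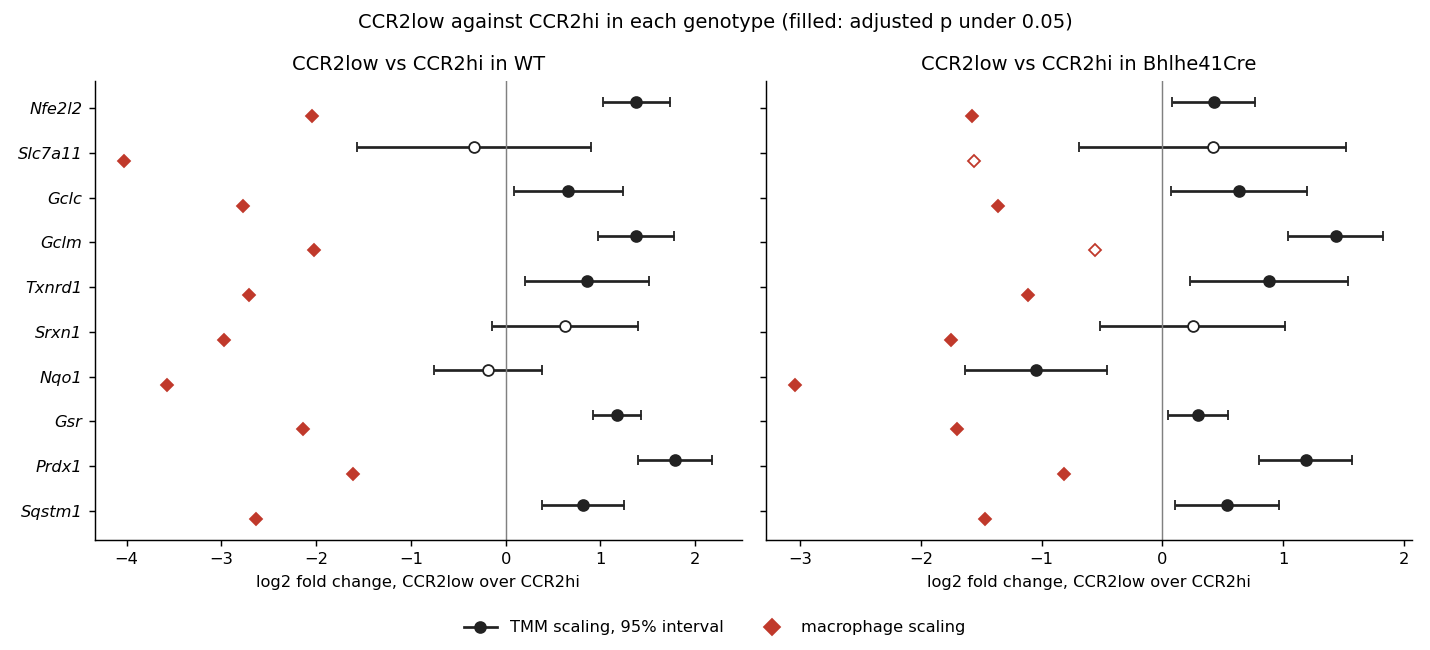
Log2 fold change of CCR2low over CCR2hi for the 10 genes in WT (left) and Bhlhe41Cre (right), black circles with 95% intervals for TMM scaling, red diamonds for macrophage scaling, filled where the adjusted p is under 0.05. Under TMM most genes lie above 0 and Nqo1 in Bhlhe41Cre lies at -1.04, whereas under macrophage scaling all 10 genes lie below 0 in both panels.

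The gate difference itself differed between genotypes for 0 members in the higher direction and 2 in the lower direction (4.74% higher and 7.85% lower of all genes). For Nfe2l2 the CCR2low over CCR2hi difference was 0.95 smaller in Bhlhe41Cre than in WT on the log2 scale (interaction -0.95, SE 0.212, adjusted p = 0.0132). For Gsr it was 0.88 smaller (interaction -0.88, SE 0.155, adjusted p = 0.00446). Both genes were lowest in WT CCR2hi, where Gsr was 37.2 ± 2.93 CPM (SD, n = 3) against 79.0 ± 3.36 to 97.0 ± 5.16 CPM in the other groups. The Nfe2l2 interaction was lost without Bhlhe41Cre CCR2hi replicate 1 (-0.68, adjusted p = 0.0827), 2 (-0.78, adjusted p = 0.0597) or 3 (-0.79, adjusted p = 0.0641). The limma fits on log2(TPM + 1), log2(TPM + 0.1) and without a TPM filter also lost it (adjusted p = 0.0542, 0.0602 and 0.105). The fit without a TPM filter lost the Gsr interaction too (adjusted p = 0.0599). Under macrophage scaling the sign of both turned (Nfe2l2 0.47, Gsr 0.44, neither called) and Gclm was called instead (1.47, adjusted p = 0.0395), where 40.9% of all genes had a higher and 0.728% a lower interaction. Prdx1 (-0.60, adjusted p = 0.106) was called without WT CCR2low replicate 3 (-0.74, adjusted p = 0.0473) and by library size scaling (-0.70, adjusted p = 0.0372). For Slc7a11 the interaction was 0.75 (95% interval -0.91 to 2.41, adjusted p = 0.513), so a difference between gates in its genotype change was not detectable with 3 libraries a group.

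Ratios within a library do not depend on the scaling, but they can depend on the mix of cell types. That mix differed between the groups, and its part in the ratios was not tested. The TPM ratio of the modifier to the catalytic subunit, Gclm to Gclc, was 8.63 ± 1.44 in WT CCR2low and 8.56 ± 1.16 in Bhlhe41Cre CCR2low, and 4.09 ± 0.0425 and 4.64 ± 0.381 in the CCR2hi groups (SD, n = 3). It was higher in every CCR2low library than in every CCR2hi library, and the genotypes overlapped in CCR2low, while in CCR2hi the Bhlhe41Cre ratios (4.21 to 4.91) lay just above those of WT (4.06 to 4.14). Txnrd1 to Nfe2l2 was 0.482 ± 0.0189 and 0.648 ± 0.260 in the WT groups and 1.87 ± 0.320 and 1.37 ± 0.114 in the Bhlhe41Cre groups, CCR2low first. Slc7a11 to Nfe2l2 was 0.00661 ± 0.00245 and 0.0157 ± 0.0122 in the WT groups and 0.166 ± 0.0625 and 0.193 ± 0.0285 in the Bhlhe41Cre groups, in the same order. In both of these ratios every Bhlhe41Cre library was above every WT library, so these targets differed between the genotypes by more than Nfe2l2 message did. Srxn1 to Prdx1 was 0.0372 ± 0.00488 in WT CCR2low and 0.0645 ± 0.0164 in Bhlhe41Cre CCR2low, without overlap. In the CCR2hi groups it was 0.0818 ± 0.0394 in WT and 0.122 ± 0.0300 in Bhlhe41Cre, and the genotypes overlapped there, with WT replicate 1 at 0.127.

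Across the 12 libraries Txnrd1 and Sqstm1 were the most closely matched members (Pearson r of log2 CPM 0.981), then Txnrd1 and Srxn1 (0.971). Nfe2l2 was nearer to Gsr (0.870) and Prdx1 (0.866) than to Slc7a11 (0.330), and Nqo1 ran against the other 9 (-0.105 to -0.568). Those values include the differences between group means. With each group's mean removed, Nfe2l2 was at 0.760 with Slc7a11, 0.285 with Prdx1 and -0.454 with Gsr, and Nqo1 was positive with 8 of the 9 (0.579 to 0.879) and at -0.528 with Gsr. Txnrd1 was then at 0.813 with Sqstm1 and 0.957 with Srxn1. These are descriptions over libraries that share groups and gates. Of all genes tested, those whose levels most resembled Nfe2l2 were Cwc25 (0.974), Sat1 (0.973), Bpnt1 (0.972), Rgs18 (0.971) and Ppp1cc (0.970). Those most like Slc7a11 were Gm7964 (0.986), Srsf2 (0.984), Slbp (0.983), Tpm3-rs7 (0.982) and Nasp (0.981). Gm7964 is annotated as a processed pseudogene and Tpm3-rs7 is named as a copy of Tpm3, so reads of their parent genes could be counted on them and their values are uncertain.

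Genes that act on NRF2 moved in part. Of 12 such genes, 6 were higher and 3 lower in Bhlhe41Cre than in WT in CCR2low cells, against 16.4% higher and 26.7% lower of all genes, with a median of 0.40 against -0.18 over all genes. Bach1, the competing repressor, rose by 1.32 (adjusted p = 0.00485), Cul3, the ligase scaffold, by 1.64 (adjusted p = 0.000205), and the small MAF partners Mafk by 0.94 (adjusted p = 0.000443) and Maff by 0.71 (adjusted p = 0.00268). Keap1 was at -0.35 (adjusted p = 0.0606) and was not called, and Nfe2l1, the related NRF1, fell by 0.38 (adjusted p = 0.0169). Under macrophage scaling Cul3 remained called (1.75, adjusted p = 0.0126), and Bach1, Mafk and Maff kept the direction without passing (adjusted p = 0.0624, 0.0721 and 0.158). In CCR2hi cells 3 of the 12 were higher and 2 lower, near the 16.2% and 15.9% of all genes, with Bach1 at 0.81 (adjusted p = 0.0639). Between the gates, 1 was higher and 4 lower in WT CCR2low, and 4 higher and 2 lower in Bhlhe41Cre CCR2low, and 2 had a higher interaction. The gate counts of this and the following lists stand against 29.8% higher and 30% lower of all genes in WT, and 24.9% and 29.1% in Bhlhe41Cre. Their interaction counts stand against 4.74% higher and 7.85% lower of all genes.

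The wider glutathione and thioredoxin genes were mixed in CCR2low cells. Of 28 other glutathione handling genes, 3 were higher and 8 lower in Bhlhe41Cre CCR2low, near the 16.4% higher and 26.7% lower of all genes, with a median of -0.29 against -0.18 over all genes. Gss, glutathione synthetase, was at 0.08 (adjusted p = 0.672), Gpx4, the lipid peroxide reductase, at -0.19 (adjusted p = 0.360), and the secreted peroxidase Gpx3 fell by 1.30 (adjusted p = 0.000164). Gpx3 was higher in the CCR2hi groups, at 795 ± 84.4 CPM in WT and 714 ± 91.9 CPM in Bhlhe41Cre (SD, n = 3). In CCR2low it was 350 ± 88.6 and 142 ± 15.8 CPM, and the part of other cell types in its fall was not tested. Of 16 thioredoxin and peroxiredoxin genes, set against the same shares, 2 were higher and 2 lower: thioredoxin, Txn1, rose by 0.73 (adjusted p = 0.00146), Prdx6 by 0.67 (adjusted p = 0.000968), Txnip, which binds thioredoxin, fell by 1.87 (adjusted p = 0.000286) and Sesn1 fell by 1.59 (adjusted p = 2.45e-05). Prdx6 and Sesn1 were named after their values were seen. In CCR2hi cells 9 of the 28 glutathione genes were higher and 3 lower, and 8 of the 16 thioredoxin genes higher and 2 lower, under TMM scaling, against 16.2% higher and 15.9% lower of all genes. Txnip there was at -0.31 (adjusted p = 0.407), and its interaction was -1.56 (adjusted p = 0.0219), against -0.39 (adjusted p = 0.452) under macrophage scaling. Between the gates, 12 of the 28 glutathione genes were higher and 5 lower in WT CCR2low, and 6 higher and 14 lower in Bhlhe41Cre CCR2low, with 7 lower interactions. For the 16 thioredoxin genes the gates gave 10 higher and 1 lower in WT, 7 higher and 4 lower in Bhlhe41Cre, and 1 higher and 5 lower interactions.

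Of 10 genes of cystine and cysteine supply, 2 were higher and 2 lower in Bhlhe41Cre CCR2low, against 16.4% and 26.7% of all genes. Slc3a2, the partner chain of xCT, rose by 0.56 (adjusted p = 0.0113), far less than Slc7a11, from 493 ± 49.1 to 727 ± 117 CPM (SD, n = 3). The glutamine transporter Slc38a2 rose by 1.26 (adjusted p = 0.00221). The 2 that fell, named after their values were seen, were Slc1a4, an amino acid transporter that fell by 1.42 (adjusted p = 0.00117), and Cdo1, the cysteine dioxygenase that breaks cysteine down, which fell by 4.05 (adjusted p = 0.00155). In CCR2hi cells 4 of the 10 were higher and 1 lower, against 16.2% and 15.9% of all genes, with Slc3a2 at 1.02 (adjusted p = 0.000405). Between the gates, 4 were higher and 2 lower in WT CCR2low, 2 higher and 6 lower in Bhlhe41Cre CCR2low, and 2 had a lower interaction.

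Other genes known as NRF2 targets were mixed in CCR2low cells: of 19 tested out of 20, 4 were higher and 6 lower in Bhlhe41Cre, against 16.4% and 26.7% of all genes, with a median of 0.16. Hmox1, heme oxygenase 1, which BACH1 represses, rose by 2.16 (adjusted p = 0.000115), from 1019 ± 153 to 4553 ± 213 CPM (SD, n = 3), and Esd by 0.88 (adjusted p = 0.000205). The ferritin chains Fth1 (0.33, adjusted p = 0.168) and Ftl1 (0.43, adjusted p = 0.132) were not called. In CCR2hi cells 11 of the 19 were higher and 4 lower, against 16.2% and 15.9% of all genes, with Hmox1 at 3.64 (adjusted p = 3.25e-06), Ftl1 at 1.65 (adjusted p = 0.000166) and Fth1 at 1.47 (adjusted p = 9.9e-05). Under macrophage scaling Hmox1 stayed higher in Bhlhe41Cre in both gates (2.28, adjusted p = 0.00562 in CCR2low and 2.22, adjusted p = 0.000905 in CCR2hi), while Ftl1 and Fth1 in CCR2hi did not pass (0.46, adjusted p = 0.172 and 0.29, adjusted p = 0.363). Ferritin genes have near-identical processed copies in the genome, so their counts are uncertain. Between the gates, 13 of the 19 were higher and 4 lower in WT CCR2low, and 12 and 4 in Bhlhe41Cre CCR2low, with 7 lower interactions. These gate and interaction counts and the CCR2hi counts of all 5 lists hold under TMM scaling: in the CCR2hi genotype comparison, macrophage scaling left 3 of the 29 most abundant or preselected list genes above 0 (Hmox1, Ftl1 and Fth1), against 24 under TMM, and in the gate comparisons it left 0 of the 29 above 0. The interaction turned the other way: 6 of the 29 were above 0 under TMM and 28 under macrophage scaling, and 13 and 76 of all 85 list genes tested.

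**Figure D4:**
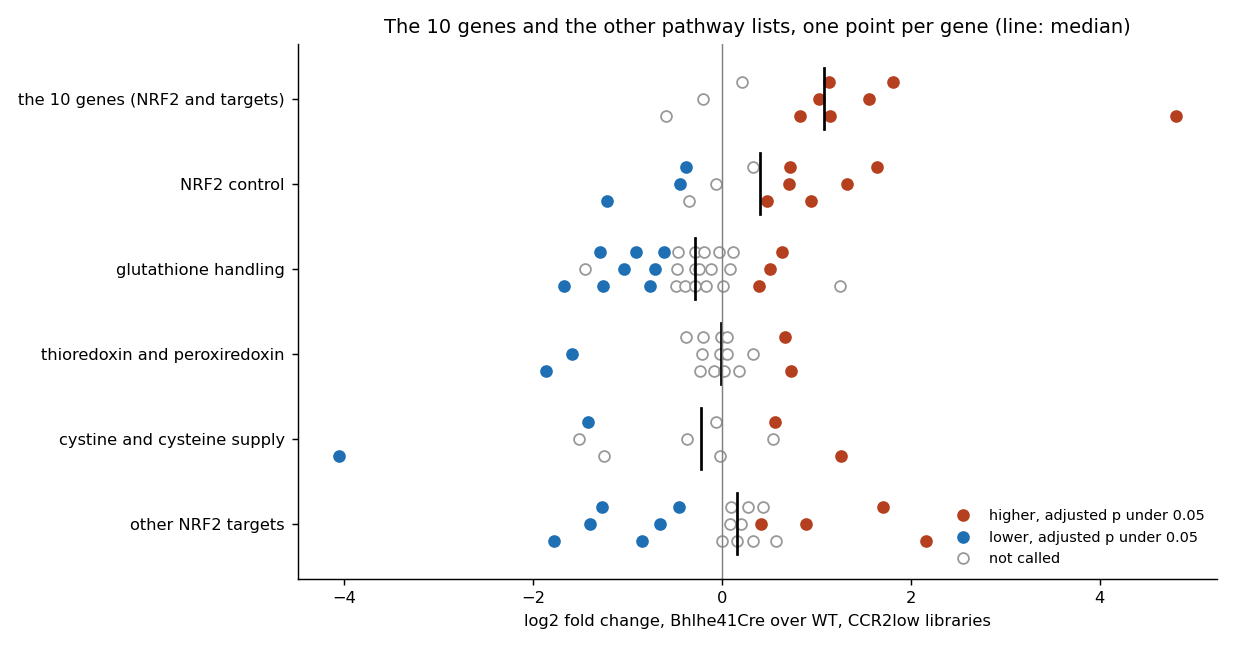
Log2 fold change of Bhlhe41Cre over WT in CCR2low cells under TMM scaling for the 10 genes and 5 further pathway lists, 1 point per gene, filled red or blue where called higher or lower, with a black line at each median. The 10 genes have a median of 1.08, and the medians of the other lists lie between -0.29 and 0.40.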

How the data were processed

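RNA sequencing libraries of cells sorted as cardiac macrophages (12, in 4 groups of 3) were used. CASAVA 1.8 for base calls, STAR 2.4.0j for alignment against mm10 and RSEM for quantification were used, per the submitters' processing notes. For the RSEM version, annotation and strand protocol nothing was stated there. The authors deposited expected counts per gene as whole numbers, and a second table of TPM values, which the authors normalized to transcript length and library total. Columns named KD were matched to the Bhlhe41Cre samples by gate and replicate number, with groups taken from sample titles because other label fields of these samples are shifted. The number of per-sample columns left unused was 0.

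Counts were tested in R 4.3.3 with edgeR 4.0.16: TMM scaling, filterByExpr (14964 genes), 1 mean per group over all 12 libraries, robust quasi-likelihood tests (8 residual degrees of freedom, common biological coefficient of variation 18.9%), two-sided, Benjamini-Hochberg over all genes tested, called at an adjusted p under 0.05 with no fold minimum. For the interaction, the gate difference (CCR2low minus CCR2hi) of WT was subtracted from that of Bhlhe41Cre. Members, lists and tests were chosen with earlier results of these data known. Named genes were the 10 members, the 5 genes of each list with the highest mean TPM, 8 fixed genes (Keap1, Bach1, Slc3a2, Gss, Gpx4, Txn1, Txnip and Hmox1), and the 5 genes most correlated with Nfe2l2 and with Slc7a11; the text gives some of the list genes, and any other is marked as named after its values were seen. A gene of the cystine and cysteine list is not reported here and is left out of its counts. The test was tested on simulated data with the same spread for every gene and no difference in cell mix between groups. That simulation does not bear on the choice of scaling. Alternatives were DESeq2 1.42.0, library size scaling, macrophage scaling, no filter, limma 3.58.1 (voom, and trend on log2(TPM + 1), log2(TPM + 0.1) and without a TPM filter), only the groups compared, a replicate block and each library left out.

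Whether replicate numbers pair libraries was checked by correlating deviations from group means over all genes tested. Between the gates, same-numbered Bhlhe41Cre libraries had r of 0.23, 0.12 and 0.40 (all over the cut-off of 0.1) and WT libraries -0.06, 0.03 and -0.05. Same-numbered libraries of different genotype also passed 0.1, at 0.104 and 0.147 between the CCR2hi groups (replicates 1 and 3). WT CCR2hi and Bhlhe41Cre CCR2low passed in replicate 3, at 0.120, and the other pairs between genotypes ran from -0.258 to 0.060. The cut-off alone therefore does not show pairing, and the main test used none. In Bhlhe41Cre, counts of Y-linked genes ran in the same order in both gates. Replicates 1, 2 and 3 had 1162, 1446 and 105 in CCR2low and 709, 1413 and 182 in CCR2hi. Replicate 3 was also lowest for the same 8 members in both gates. In WT the Y-linked order differed between the gates. Whether same-numbered Bhlhe41Cre libraries share animals was not tested. If they do, their gate and interaction p-values treat matched libraries as independent. No 2 libraries were identical, as each pair of the 12 differed at 19623 or more genes. Promoter windows came from RefSeq.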

Additional observations from a re-analysis of the deposited data

Results flagged for a closer look

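Nfe2l2 had a CCR2low over CCR2hi difference that was smaller in Bhlhe41Cre than in WT, by a test of the difference itself (interaction -0.95 on the log2 scale, adjusted p = 0.0132, edgeR). Gsr had the same direction (interaction -0.88, adjusted p = 0.00446, edgeR). Both values turned positive under macrophage scaling, at 0.47 and 0.44. In the 21 other alternatives the Nfe2l2 call was lost in 6 and the Gsr call in 1.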

How the results depend on the processing

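Outside macrophage scaling, 967 of the 1090 single-gene values across alternatives kept direction and call, 78 lost the call, 12 gained it and 33 changed sign, each of the 33 from a value that was not called. No single left-out library ended a genotype call of any member. Gclc lost both genotype calls by limma on TPM without a filter (adjusted p = 0.069 and 0.0877). The causes were not tested.

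Under macrophage scaling the numbers of members called were 0 higher and 10 lower (WT gates), 0 and 8 (Bhlhe41Cre gates), 1 and 1 (genotype in CCR2hi) and 1 and 0 (interaction), by construction relative to macrophage genes. Of all genes, 95.2% and 90.2% were lower in those gates, 73.1% were lower by genotype in CCR2hi and 40.9% had a higher interaction. Values that changed sign there were, in the WT gates, Nfe2l2 -2.04, Gclc -2.78, Gclm -2.03, Txnrd1 -2.70, Srxn1 -2.97, Gsr -2.14, Prdx1 -1.61 and Sqstm1 -2.63. In the Bhlhe41Cre gates they were Nfe2l2 -1.57, Slc7a11 -1.56, Gclc -1.36, Gclm -0.56, Txnrd1 -1.11, Srxn1 -1.75, Gsr -1.70, Prdx1 -0.81 and Sqstm1 -1.47. For genotype in CCR2hi they were Nfe2l2 -0.56, Gclc -0.25, Gclm -0.20, Nqo1 -1.01 and Gsr -0.12. For the interaction they were Nfe2l2 0.47, Gclc 1.41, Srxn1 1.22, Nqo1 0.53, Gsr 0.44, Prdx1 0.79 and Sqstm1 1.16.

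Members higher in the Bhlhe41Cre gates numbered 2 under library size scaling and under the 3 TPM fits, 4 without both Bhlhe41Cre libraries numbered 3 (chosen after seeing the data), and 2 to 7 with 1 library left out. Members higher in the WT gates numbered 4 in the 3 TPM fits. The interaction called 1, 1 and 0 members lower on log2(TPM + 1), log2(TPM + 0.1) and without a TPM filter, and 1 to 3 with 1 library left out.

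Uncalled values changed sign as follows. The Gclc interaction was 0.0701 by DESeq2, 0.17 without a count filter, 0.0524 on log2(TPM + 1) with and without a filter, 0.0344 on log2(TPM + 0.1), 0.00784 without both Bhlhe41Cre libraries numbered 3 and -0.15 to 0.37 with 1 library left out. The Gclm interaction was -0.0326 by library size, -0.14 on log2(TPM + 1) with and without a filter, -0.15 on log2(TPM + 0.1) and -0.0300 to 0.38 with 1 left out. The Txnrd1 interaction was -0.0707 by library size, -0.13 by limma-voom and -0.33 to 0.36 with 1 left out. Slc7a11 in the WT gates was 0.10 by limma-voom and -0.72 to 0.69 with 1 left out. In the Bhlhe41Cre gates it was -0.0742 on log2(TPM + 1) with and without a filter and -0.0819 on log2(TPM + 0.1), and its interaction was -0.0312 there and -0.27 to 1.2 with 1 left out.

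With the replicate block, Srxn1 in the WT gates was called (0.81, adjusted p = 0.0134), Slc7a11 there was 0.0238 and the Txnrd1 interaction -0.13, both uncalled. The block changed no other call. Depth limits Nqo1 most, at 26 to 78 counts per library.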
